A study of Mus musculus with 2 samples.

Results

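Trp63, Pdpn, Ly6a, Plet1, Bmi1 and Sox9. They were taken by name, and a gene's most read transcript, with both tables added, stood for it. They make up 6 of the 23411 genes, where a transcript without a symbol counted as its own gene. The data are poly-A RNA counts from medullary thymic epithelial cells (mTEC) of the thymus of B6 mice, sorted by surface MHC class II into an MHC-II high and an MHC-II low fraction. Each fraction gave 1 library, and both came from a pool of 3 mice, with no age or sex in the labels. The series title names the deacetylase Sirt1 and the tolerance that depends on Aire. With 1 library per fraction there was no replicate check and no test across genes, and every interval below is a 95% interval that covers counting error only. In bulk RNA of this kind, fewer cells of a type and less RNA per cell cannot be told apart.

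Thymic epithelium arises from a common progenitor that gives rise to cortical and medullary cells, and medullary cells with little MHC class II include immature, basal and chemokine-producing cells as well as cells past the Aire stage. Trp63 encodes p63, the transcription factor that keeps basal epithelia, thymic epithelium among them, able to renew. Pdpn encodes podoplanin, a surface glycoprotein of cells at the border of cortex and medulla, of lymphatic endothelium and of fibroblasts. Ly6a encodes Sca-1, a surface protein tied to the membrane by a lipid anchor, which interferon induces and which stem and endothelial cells also carry. Plet1 encodes the surface protein recognised by antibodies to early thymic epithelial progenitors. Bmi1 encodes a subunit of Polycomb repressive complex 1 that holds the Cdkn2a locus silent, and Sox9 encodes a transcription factor of cartilage and of several epithelial stem cells.

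Trp63 is printed first because its listed transcripts did not all carry the same count, so some parts of it could be compared. The full-length (TA) and the N-terminally shortened (delta N) forms start from different promoters and have different first exons. The alpha form differs from the beta form by an exon of 94 bases near the 3′ end. The coding parts of the 2 first exons and the whole alpha exon follow, 5′ to 3′ from GENCODE vM21, with the start codon in capitals.
delta N first exon: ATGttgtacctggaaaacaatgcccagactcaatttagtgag
TA first exon: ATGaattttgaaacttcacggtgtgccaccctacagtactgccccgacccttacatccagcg
alpha exon: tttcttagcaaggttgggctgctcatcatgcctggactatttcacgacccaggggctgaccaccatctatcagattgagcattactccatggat

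The start regions of Pdpn, Plet1 and Bmi1 are shown because only these 3 of the 6 genes had an entry. They are RefSeq sequences of build GRCm38.p6, from 250 bases before to 50 bases after the start. Trp63, Ly6a and Sox9 had no entry. Capitals mark the TATAAA motif, the CCAAT box and the GGGCGG box on either strand, with overlapping matches of a motif counted separately. The positions are chr4:143299515-143299814 on the minus strand for Pdpn, chr9:50494275-50494574 on the plus strand for Plet1 and chr2:18676768-18677067 on the plus strand for Bmi1.
Pdpn: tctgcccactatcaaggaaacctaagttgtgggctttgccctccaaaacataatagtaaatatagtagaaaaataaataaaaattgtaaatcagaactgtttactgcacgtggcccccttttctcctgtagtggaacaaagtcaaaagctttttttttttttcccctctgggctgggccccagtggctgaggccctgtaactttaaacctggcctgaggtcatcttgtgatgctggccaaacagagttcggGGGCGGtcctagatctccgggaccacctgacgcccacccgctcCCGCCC
Plet1: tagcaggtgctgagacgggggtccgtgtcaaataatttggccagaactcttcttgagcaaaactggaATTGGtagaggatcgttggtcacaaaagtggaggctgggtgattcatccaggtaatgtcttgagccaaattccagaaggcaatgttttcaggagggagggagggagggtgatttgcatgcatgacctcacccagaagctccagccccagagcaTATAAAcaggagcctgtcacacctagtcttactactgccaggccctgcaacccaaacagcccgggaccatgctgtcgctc
Bmi1: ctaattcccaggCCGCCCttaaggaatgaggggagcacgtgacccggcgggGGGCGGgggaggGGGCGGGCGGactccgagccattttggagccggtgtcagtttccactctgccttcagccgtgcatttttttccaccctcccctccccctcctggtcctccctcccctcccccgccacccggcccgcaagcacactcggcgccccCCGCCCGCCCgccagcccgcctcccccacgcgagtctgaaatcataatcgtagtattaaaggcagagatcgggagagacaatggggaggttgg
The Bmi1 region held 23 CpG, more than 78.5% of 32851 promoters of this length, and 6 matches of GGGCGG. The Pdpn region held 7 CpG, which is also the median over promoters, and 2 matches of GGGCGG. The Plet1 region held 5 CpG, 1 TATAAA and 1 CCAAT. Among all promoters 13.6% held TATAAA, 37.4% held CCAAT and 35.7% held GGGCGG. A match describes letters and is not a measured binding site. Any link between these regions and the ratios was not tested.

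Pdpn, Ly6a and Trp63 were lower in the MHC-II high than in the MHC-II low library, by 5.10-fold, 4.40-fold and 2.14-fold. On the main scale, described next, Sox9, Plet1 and Bmi1 stayed within 2-fold, with MHC-II high over MHC-II low ratios of 0.741, 0.848 and 1.002. A gene was called higher or lower when the whole interval of its ratio lay beyond 2-fold, in counts scaled to library size by the TMM method (CPM). By that rule 0 of the 6 were higher and 3 were lower, and all 6 passed the minimum of a mean of 1 CPM. Among the 17438 genes compared, 10.9 percent were lower and 14.5 percent were higher (25.4 percent in either direction). With no minimum, 16.7 percent of 22947 genes were lower, 12.4 percent were higher and 29 percent were either. The median log2 ratio of the 6 genes was -0.76, against -0.01 over all genes compared, whose quartiles were -0.58 and 0.65. The genes were chosen with earlier results of these libraries known, so these counts are a description. The scale of the libraries mattered. The read totals behind the authors' deposited RPKM values raise every log2 ratio by 1.003. With these RPKM totals Pdpn and Ly6a were still called lower, Trp63 was not, and Plet1 and Sox9 lay above 0. Bmi1 reached a log2 ratio of 1.01 (0.93 to 1.08), at the edge of 2-fold, and was not called. Over all genes these totals gave 7232 higher and 471 lower, and a median log2 ratio of 0.99. Every list count given below with these totals carries that shift.

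**Figure D1:**
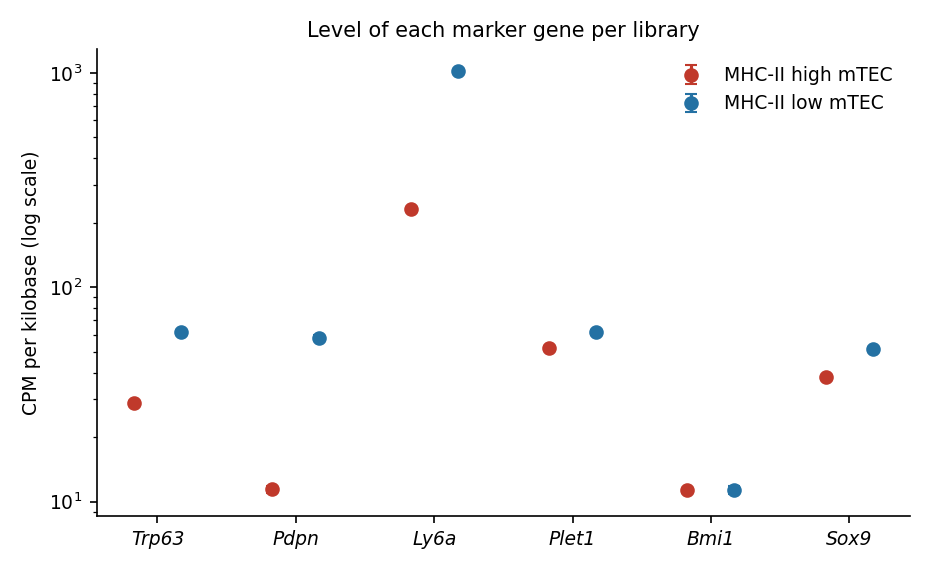
Level of each marker in CPM per kilobase of transcript (log axis) in the MHC-II high library and, to its right, the MHC-II low library. Points are single libraries, and the 95% counting intervals are mostly smaller than the points; Ly6a is the most abundant in both (231.0 in MHC-II high and 1017 in MHC-II low), and Bmi1 is at 11.3 in each.

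Ly6a was the most abundant of the 6 per length of transcript in both libraries. Its level in CPM per kilobase reached 231.0 for MHC-II high (228.6 to 233.5) and 1017 for MHC-II low (1008 to 1026), above that of 99.0% and 99.7% of the genes compared. In the MHC-II high library it was followed by Plet1 at 52.2, Sox9 at 38.1 and Trp63 at 29.0 CPM per kilobase, and by Pdpn at 11.4 and Bmi1 at 11.3, whose intervals overlapped. In the MHC-II low library Trp63 at 61.9 (60.9 to 62.9) and Plet1 at 61.6 (60.0 to 63.2) could not be ordered, and Pdpn at 58.3 (56.7 to 59.9), Sox9 at 51.4 and Bmi1 at 11.3 came after them. This order depends on the transcript that stood for a gene. In deposited RPKM of the MHC-II low library Trp63 had 22.1 by its most read transcript and 15.0 by a shorter one. Pdpn had 20.8 and Sox9 18.4 there. Pdpn, which was close to Trp63 and Plet1 in the MHC-II low library, was close to Bmi1 in the MHC-II high library. The median gene stood at 7.11 CPM per kilobase in the MHC-II high and 6.91 in the MHC-II low library, below every one of the 6.

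**Figure D2:**
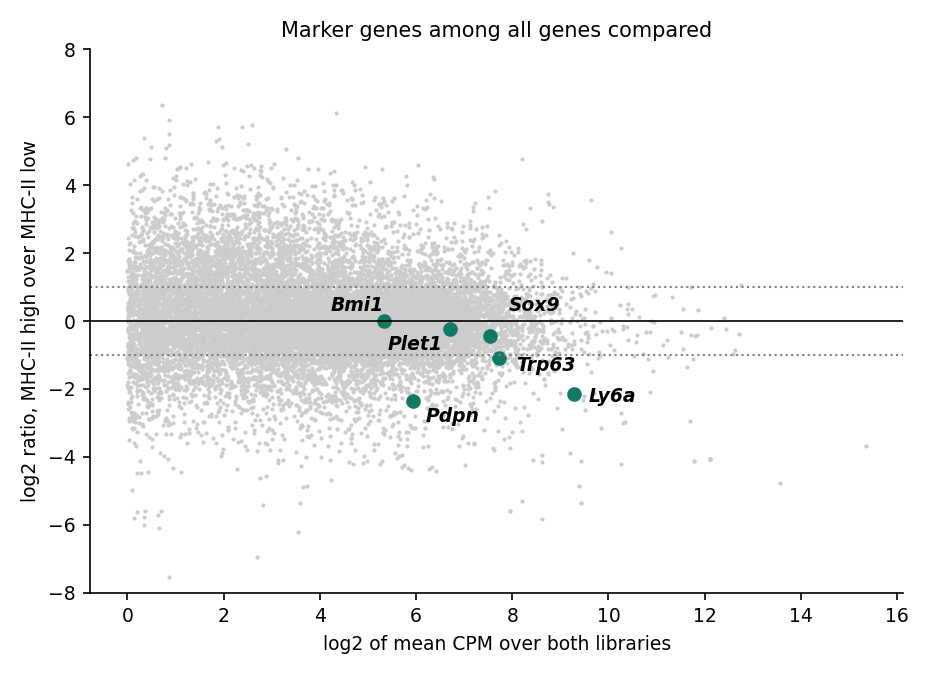
Log2 ratio of MHC-II high over MHC-II low (vertical axis) against the log2 of mean CPM over both libraries for the genes compared, with the 6 markers named and lines at 2-fold in either direction. Pdpn at -2.35, Ly6a at -2.14 and Trp63 at -1.10 lie below the lower line, and Bmi1 lies at 0.00.

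Pdpn, the surface glycoprotein, showed the largest difference of the 6. It had 3089 reads in the MHC-II high library and 5236 in the MHC-II low library, although the low library held fewer reads in all, which is 20.2 CPM in MHC-II high and 103 in MHC-II low. The log2 ratio was -2.35 (-2.42 to -2.29), and 2.68% of all genes compared had a lower one. Podoplanin binds the platelet receptor CLEC-2 and the chemokine CCL21, and it links to the cytoskeleton through ezrin and moesin. Of 9 genes on the list of its partners, 1 was higher and 1 lower. Ccl21a, the chemokine that draws thymocytes into the medulla, had 382 CPM in the MHC-II high and 6689 CPM in the MHC-II low library, 17.5-fold lower in MHC-II high, and near-identical copies of this gene make its value uncertain. Clec1b, the gene of CLEC-2, had 295 reads in MHC-II high and 4 in MHC-II low (1.93 CPM in MHC-II high and 0.0788 in MHC-II low), 24.5-fold higher in MHC-II high (9.47 to 90.5). Msn, which encodes moesin, had 511 CPM in MHC-II high and 323 in MHC-II low and was called neither way. Of its nearest neighbours on the chromosome, Kazn (log2 ratio -0.05) and Prdm2 (-0.11) were not called.

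Ly6a, the Sca-1 gene, had 35381 reads in the MHC-II high library and 51728 in the MHC-II low library, or 231.5 CPM in MHC-II high and 1019 in MHC-II low. The log2 ratio was -2.14 (-2.16 to -2.12). Its 6 listed transcripts carried the same count, so no form could be told from another. Ly6a lies in a cluster of related genes of surface and secreted proteins, of which 15 passed the minimum, with 3 higher, 3 lower and a median log2 ratio of 0.53, against 8 higher and 2 lower with the RPKM totals. Ly6a and Ly6e, a neighbour that encodes a related surface protein, were 2 of the 3 lower ones, and Gpihbp1, the endothelial protein that anchors lipoprotein lipase, was the other. Ly6e had 1139 CPM in the MHC-II high library and 2494 CPM in the MHC-II low library, and its log2 ratio of -1.13 was not called with unscaled totals (-0.84). Gpihbp1 had 0.844 CPM in MHC-II high and 6.66 in MHC-II low. The 3 higher ones were Ly6f with 410 reads in MHC-II high and 5 in MHC-II low, Lypd2 with 40.9 CPM in MHC-II high and 16.5 in MHC-II low, and Psca with 36.0 CPM in MHC-II high and 15.1 in MHC-II low. The near neighbours Ly6c1 (22.1 CPM in MHC-II high and 45.8 in MHC-II low), Ly6c2 (21.7 CPM in MHC-II high and 13.2 in MHC-II low) and Ly6i (23.9 CPM in MHC-II high and 14.4 in MHC-II low) were not called. These 3 share stretches of sequence with Ly6a, since 91 of the 906 windows of 50 bases in the Ly6a transcript also occur in another gene's transcript, while 0 of its 100-base windows do.

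Interferon induces Ly6a, and other interferon-induced genes were set beside it. Of 12 listed, 0 were higher and 7 lower, with a median log2 ratio of -1.09, while 10.9 percent of all genes compared were lower. The antiviral gene Ifit3 had 34.5 CPM in the MHC-II high and 460 CPM in the MHC-II low library, and Irf7, a transcription factor that amplifies the interferon response, had 82.9 CPM in MHC-II high and 562 in MHC-II low. Irf1, a factor also induced by interferon gamma, had 361 CPM in MHC-II high and 303 in MHC-II low and was not called. With DESeq2 size factors 6 of the 12 were lower, and with the RPKM totals 5 were lower and 3 higher. Unscaled totals gave 5 lower and 1 higher. The part of interferon in the Ly6a ratio was not tested.

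Trp63 had 20761 reads in the MHC-II high library and 14744 in the MHC-II low library, or 136 CPM in MHC-II high and 290 in MHC-II low. The log2 ratio was -1.10 (-1.13 to -1.07), which lies just beyond 2-fold. It was not called with unscaled totals (-0.81), with the RPKM totals (-0.094), or with TMM over all genes (-0.98), so its direction held while its call depended on the scale. Its relative Trp53, the tumour suppressor p53, had 94.5 CPM in MHC-II high and 77.2 in MHC-II low, and Trp73, which encodes p73, had 8.72 CPM in MHC-II high and 9.75 in MHC-II low. Neither was called. Among its neighbours P3h2, a collagen-modifying enzyme, had 9.25 CPM in the MHC-II high and 2.84 CPM in the MHC-II low library and was called higher. Tprg (-0.72) and Cldn1 (-0.20) were not called.

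Transcript forms of Trp63 were read from differences between their counts. The table listed 8 transcripts, and each form held the reads it shares with the others. The exon of 94 bases printed above, present in alpha and not in beta, held 180 reads in the MHC-II high library and 179 in the MHC-II low library, or 1.18 CPM in MHC-II high and 3.53 in MHC-II low. It was 2.99-fold lower in the MHC-II high library (2.42 to 3.70). The reads, of 100 bases, are longer than this exon, and how reads that extend past an exon were counted is not stated. The delta N alpha transcript held 135 more reads than the TA alpha transcript in the MHC-II high library and 211 more in the MHC-II low library, and the same excess appeared between the beta and between the gamma forms. Since all shared exons cancel in this difference, it equals the reads on the delta N exon of 186 bases minus those on the 3 TA exons, together 849 bases. At least that many reads therefore lay on the shorter delta N exon, 0.883 CPM in the MHC-II high and 4.16 CPM in the MHC-II low library, while the reads on the TA exons alone could not be derived. The gamma transcripts, which end earlier, had 4028 reads in MHC-II high and 3673 in MHC-II low, 2.75-fold lower in the MHC-II high library (2.62 to 2.87). Their count equalled 19.4% of the alpha count in the MHC-II high and 24.9% in the MHC-II low library. These counts include reads on exons that alpha shares, so neither the ratio nor the percentages measure the gamma form alone. With the gamma transcript in place of alpha, Trp63 had a log2 ratio of -1.46, which was also called with unscaled totals (-1.17) but not with the RPKM totals (-0.45).

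**Figure D3:**
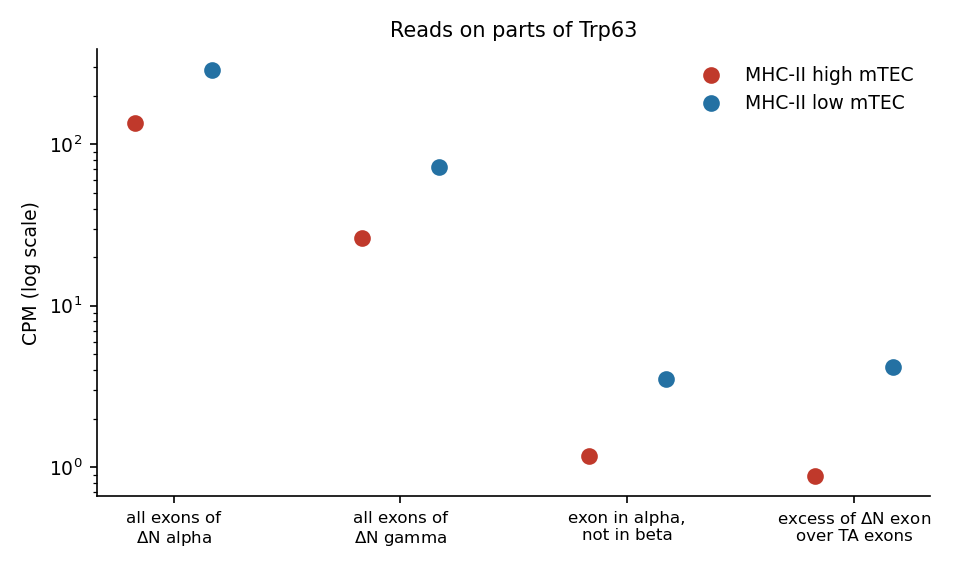
Parts of Trp63 in CPM (log axis) in the MHC-II high library and, beside it, the MHC-II low library: the delta N alpha and gamma transcripts, the exon of 94 bases that alpha has and beta lacks, and the excess of delta N over TA reads. Each point of the MHC-II high library lies below its MHC-II low partner, the excess at 0.883 against 4.16 CPM.

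Genes known as p63 targets in basal epithelia were set beside Trp63. Of 22 listed, 0 were higher and 9 lower, with a median log2 ratio of -0.67, while 10.9 percent of all genes compared were lower. Krt5, a basal keratin, had 768 CPM in the MHC-II high and 5863 CPM in the MHC-II low library, and its partner Krt14 had 293 CPM in MHC-II high and 2306 in MHC-II low. Dsp, which encodes desmoplakin, a plaque protein of desmosomes, had 1092 CPM in MHC-II high and 1606 in MHC-II low and was not called. The other 7 lower genes, named after their values were seen, were Lamb3, Jag2, Fgfr2, Lama3, Dst, Itgb4 and Dsc3. Lamb3 and Lama3 encode chains of laminin-332, Itgb4 and Dst act in hemidesmosomes, Dsc3 is a desmosomal cadherin, and Jag2 and Fgfr2 act in Notch and FGF signalling. Lamb3 had 43.4 CPM in MHC-II high and 314 in MHC-II low, and Itgb4 had 143 CPM in MHC-II high and 334 in MHC-II low. Itgb4 and Dsc3 were not called with unscaled totals. Another hemidesmosome gene of the list, Col17a1, also named after its values were seen, had 65.2 CPM in MHC-II high and 38.5 in MHC-II low and was not called. With the RPKM totals 5 of the 22 were lower and 4 higher. The part of p63 in these ratios was not tested.

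Plet1 had 14721 reads in the MHC-II high library and 5770 in the MHC-II low library, or 96.3 CPM in MHC-II high and 114 in MHC-II low. The ratio was 0.848 (0.822 to 0.874), inside 2-fold, and its log2 value of -0.24 became 0.048 with unscaled totals and 0.76 with the RPKM totals. Plet1os is transcribed from the opposite strand of the same locus and had 33.4 CPM in the MHC-II high and 33.3 CPM in the MHC-II low library. The library kit did not keep strand, and 5.53% of the 100-base windows of Plet1 also occur in Plet1os, so a part of these reads cannot be assigned. The neighbour Ncam1, a cell adhesion molecule, had 10.3 CPM in the MHC-II high and 23.8 CPM in the MHC-II low library, and its log2 ratio of -1.21 was called lower but not with unscaled totals (-0.92), the RPKM totals (-0.21) or TMM over all genes (-1.09).

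Sox9 had 24156 reads in the MHC-II high library and 10829 in the MHC-II low library, or 158 CPM in MHC-II high and 213 in MHC-II low. The ratio was 0.741 (0.724 to 0.758), inside 2-fold, and the log2 value of -0.43 became 0.57 with the RPKM totals. The 6 SOXE and SOXD genes include its relatives and its partners in cartilage. None was higher, and 2 SOXD genes, Sox5 and Sox13, were lower. Sox5, a cartilage partner, had 0.995 CPM in MHC-II high and 3.01 in MHC-II low. Sox13 had 6.19 CPM in MHC-II high and 15.7 in MHC-II low, and neither of these 2 was called with unscaled totals. With the RPKM totals 3 of the 6 were higher and 0 lower. Sox6, the other cartilage partner, had 4.57 CPM in MHC-II high and 3.33 in MHC-II low and was not called. Sox8 (20.7 CPM in MHC-II high and 17.0 in MHC-II low) and Sox10 (5.25 CPM in MHC-II high and 4.22 in MHC-II low), the closest relatives, were not called. The 9 other SOX genes that could be compared included 2 higher and 3 lower ones. Sox21, a transcription factor of hair follicles and neurons, had 55.3 CPM in MHC-II high and 17.9 in MHC-II low, and Sox17, an endoderm and endothelial factor, had 0.628 CPM in MHC-II high and 3.72 in MHC-II low.

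Genes that Sox9 is known to activate in cartilage did not share its ratio. Among 11 that could be compared 4 were higher and 1 was lower, and the median log2 ratio was 1.13. With the RPKM totals 8 were higher and 0 lower. Comp, a cartilage matrix protein, had 11.4 CPM in the MHC-II high and 0.473 CPM in the MHC-II low library, 24.1-fold higher in MHC-II high (16.2 to 37.7). Acan, which encodes aggrecan, had 15.0 CPM in MHC-II high and 2.52 in MHC-II low. Col2a1, which encodes the main cartilage collagen, had 9.97 CPM in MHC-II high and 31.2 in MHC-II low and was the lower one, a call lost with the RPKM totals (-0.64). Aire, which brings many tissue-restricted genes to expression in mTEC, had 571 CPM in the MHC-II high and 21.0 CPM in the MHC-II low library, and its part in these ratios was not tested.

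Bmi1 had 6214 reads in the MHC-II high library and 2060 in the MHC-II low library, which is 40.7 CPM in MHC-II high and 40.6 in MHC-II low. The ratio was 1.002 (0.953 to 1.05), and 50.8% of all genes compared had a lower one. Its log2 value of 0.00 became 0.29 with unscaled totals and 1.01 (0.93 to 1.08) with the RPKM totals, and it was not called with either. Of the 100-base windows of Bmi1, 7.21% also occur in the gene model Gm5946. Bmi1 competes with 5 paralogs for the same place in Polycomb repressive complex 1, and of these 6 PCGF genes 0 were called, with a summed level of 149.7 CPM in each library. Pcgf5 had 36.2 CPM in MHC-II high and 21.5 in MHC-II low, and Pcgf2, the paralog most like Bmi1, had 11.8 CPM in MHC-II high and 23.1 in MHC-II low. With the RPKM totals 2 of the 6 were higher. Among 14 other subunits of that complex 2 were higher and 2 lower, against 7 higher and 0 lower with the RPKM totals. Phc3, a polyhomeotic subunit, had 229 CPM in MHC-II high and 78.0 in MHC-II low, and Scmh1, which binds such subunits, had 15.1 CPM in MHC-II high and 52.9 in MHC-II low.

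Polycomb repressive complex 2 writes the histone mark that some forms of the first complex bind. Of its 11 listed subunits 4 were higher and 0 lower, with a median log2 ratio of 0.68, while 14.5 percent of all genes compared were higher. With the RPKM totals 8 were higher, and the median over all genes compared was 0.99. The cofactor Aebp2 had 370 CPM in the MHC-II high and 89.6 CPM in the MHC-II low library, and the methyltransferase Ezh2 had 38.8 CPM in MHC-II high and 12.03 in MHC-II low. Suz12 and Jarid2, named after their values were seen, were the other 2, with 85.2 CPM in MHC-II high and 37.5 in MHC-II low for Suz12 and 122 CPM in MHC-II high and 49.8 in MHC-II low for Jarid2. Cdkn2a, which Bmi1 represses and which was named after its values were seen, had 24.6 CPM in MHC-II high and 21.1 in MHC-II low and was called higher only with the RPKM totals (1.22). Cdkn2b, the neighbouring cell cycle inhibitor, had 98.5 CPM in MHC-II high and 55.3 in MHC-II low and was not called, except with unscaled totals (1.12), with the RPKM totals (1.84) and at 1.5-fold. Mdm2, which degrades p53, had 526 CPM in MHC-II high and 73.3 in MHC-II low and was the 1 higher gene of 5 on the list of the Bmi1 target locus and senescence.

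**Figure D4:**
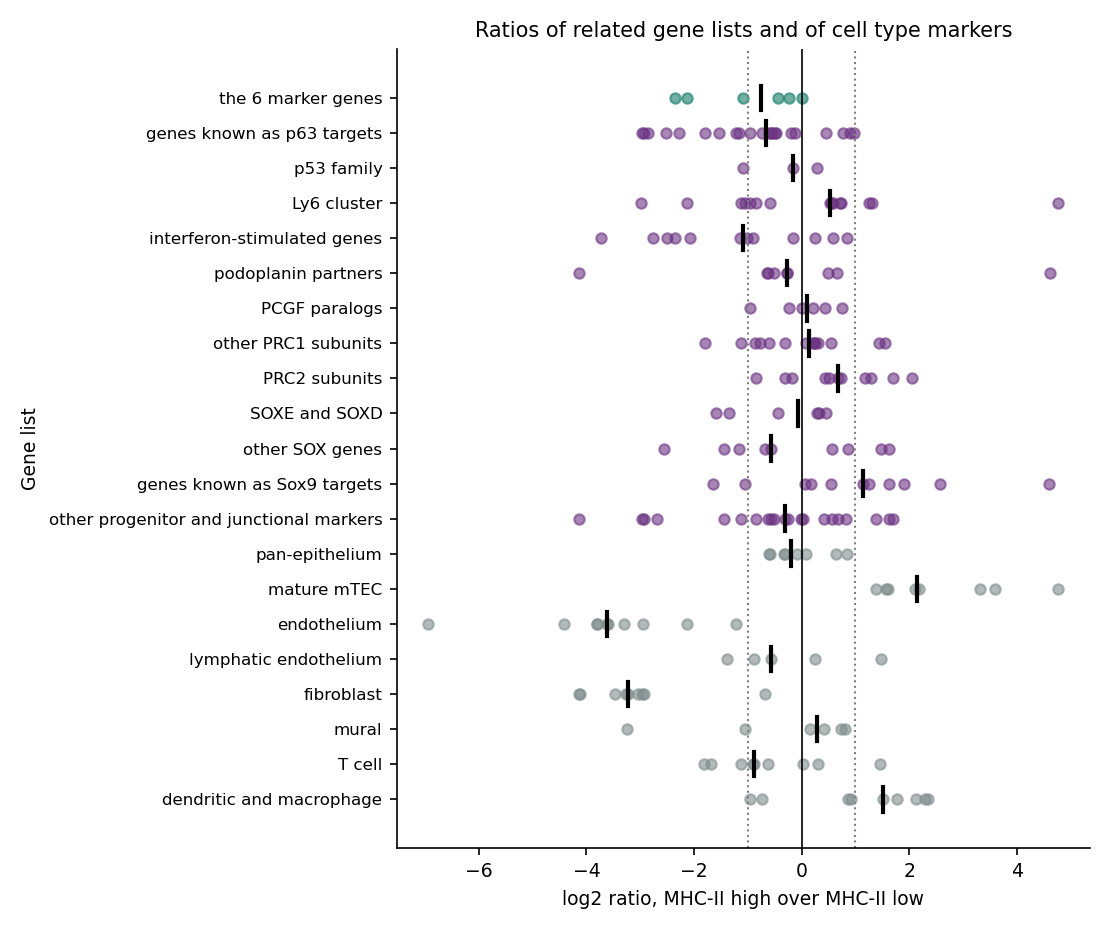
Log2 ratio of MHC-II high over MHC-II low for genes past the minimum, 1 row per gene list, with bars at the list medians and dotted lines at 2-fold. The 6 PCGF genes lie between the dotted lines (median 0.11), while the endothelial (-3.61) and fibroblast (-3.22) medians lie far to the low side. The immature and basal mTEC, cortical, B cell, erythroid and Bmi1 target lists are not drawn.

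A further list of 22 progenitor and junctional markers was read beside the 6. Among the 21 that could be compared 3 were higher and 6 lower, and the median log2 ratio was -0.32. With the RPKM totals 7 were higher and 4 lower, and the median was 0.69. The lower ones were Ccl21a, Krt5 and Krt14, already given, and Igfbp5, Pax1 and Krt19. Igfbp5, which binds insulin-like growth factors, had 328 CPM in the MHC-II high and 2125 CPM in the MHC-II low library. Pax1, a transcription factor of the pharyngeal pouch that forms the thymus, had 64.6 CPM in MHC-II high and 175 in MHC-II low. Krt19 had 93.9 CPM in MHC-II high and 205 in MHC-II low, and its call was lost with unscaled totals. The higher ones were Foxn1, the master factor of thymic epithelium, with 112 CPM in MHC-II high and 34.5 in MHC-II low, Enpep, an aminopeptidase, with 20.0 CPM in MHC-II high and 6.48 in MHC-II low, and Tnfrsf11a, the RANK receptor, with 215 CPM in MHC-II high and 82.7 in MHC-II low. Lists overlap here: Tnfrsf11a is counted again below among the mature mTEC genes, and Enpep among the cortical epithelial genes. The genes of this list other than Ccl21a, Krt5 and Krt14 were named after their values were seen.

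Markers of endothelium, fibroblasts and myeloid cells also differed between the libraries. Of 8 pan-epithelial genes 0 were called, with log2 ratios that ran from Krt18 at -0.61 to Cldn7 at 0.84, and 3 were higher with the RPKM totals. Epcam, an epithelial adhesion molecule named after its values were seen, had 621 CPM in the MHC-II high and 586 CPM in the MHC-II low library. All 8 mature mTEC genes were higher in MHC-II high. Of 6 immature and basal mTEC genes 0 were higher and 4 lower, with sums of 1865 CPM in MHC-II high and 15549 in MHC-II low. Those 4 were Ccl21a, Krt5, Krt14 and Itgb4, all given above. With the RPKM totals 3 of the 6 were lower and 1 higher. All 10 endothelial markers were lower, with summed levels of 86.6 CPM in the MHC-II high and 656 CPM in the MHC-II low library. Of 9 fibroblast markers 8 were lower, with sums of 239 CPM in MHC-II high and 2512 in MHC-II low, among them Col6a1 with 74.3 CPM in MHC-II high and 1300 in MHC-II low. The endothelial marker Pecam1 had 7.60 CPM in MHC-II high and 163 in MHC-II low. Endothelium carries Ly6a, and fibroblasts carry Pdpn and Ly6a. Lymphatic endothelium carries Pdpn, and its 5 markers summed to 44.6 CPM in MHC-II high and 46.1 in MHC-II low, with 1 higher and 1 lower. Of 6 mural genes 0 were higher and 2 lower, of 9 T cell genes 1 was higher and 2 lower, and of 4 B cell genes 2 were higher and 0 lower. The 9 cortical epithelial genes included 3 higher and 2 lower ones. Over all genes compared 14.5 percent were higher and 10.9 percent lower. The haemoglobin genes Hba-a1 (32.8 CPM in MHC-II high and 1342 in MHC-II low) and Hbb-bs (13.7 CPM in MHC-II high and 772 in MHC-II low) were the 2 lower of 3 erythroid genes past the minimum. Of 9 dendritic cell and macrophage genes 5 were higher, and Lyz2, a lysozyme, made up most of their sum with 362 CPM in MHC-II high and 74.0 in MHC-II low. No marker in these lists was at 0 reads in either library. The part of these cells in the ratios of Pdpn, Ly6a and the other markers was not tested.

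The closest patterns to each marker were sought among all named genes by distance in log2(CPM + 0.1) over the 2 libraries. Those nearest to Trp63 were Ppib (distance 0.0796) and Rps16 (0.0963), and those nearest to Pdpn were Pros1 (0.0886) and Cpxm2 (0.125). Ly6a stood farthest from any gene, with Ccn1 at 0.209 and Flna at 0.259. Plet1 was nearest to Map3k12 (0.00906), Bmi1 to Thumpd1 (0.0119) and Sox9 to Dsc2 (0.0309). With 2 libraries such a likeness rests on 2 values per gene.

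**Figure D5:**
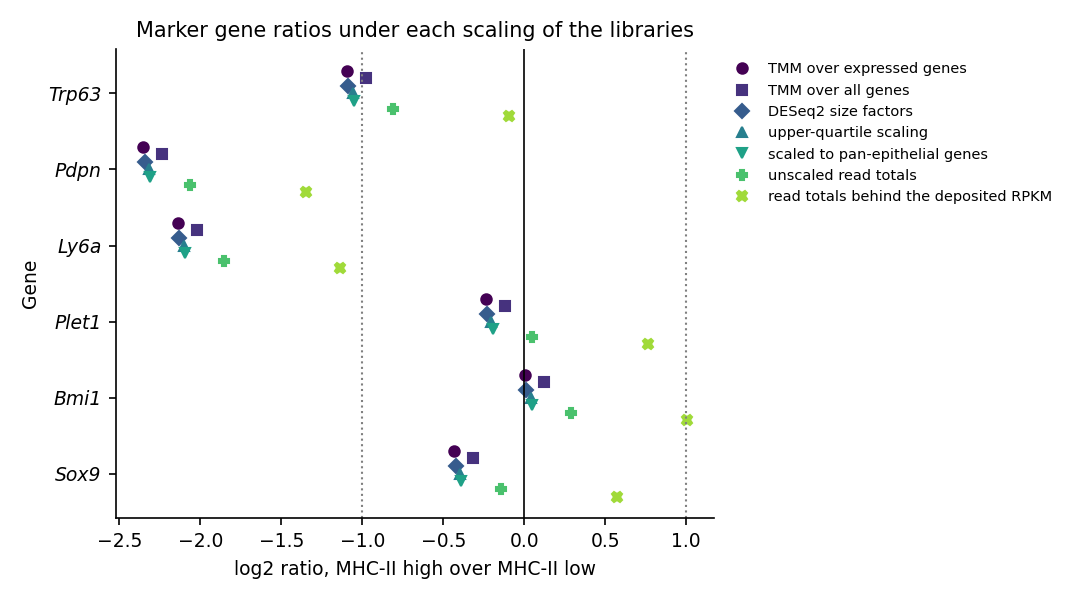
Log2 ratio of MHC-II high over MHC-II low for the 6 markers under each scaling of the libraries, with lines at 2-fold. Pdpn lies between -2.35 and -1.35 and Ly6a between -2.14 and -1.14, while Trp63 crosses the lower line and Plet1 and Sox9 cross 0. Bmi1 runs from 0.00 to 1.01.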

How the data were processed

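The input was about 100 ng of total RNA per library, taken through a poly-A kit without strand information and 15 PCR cycles, and read as 2 ends of 100 bases, per the labels' protocols and the series' design text. The submitters' processing notes name mm9, CASAVA, Bowtie 1.0.0 and bedtools, without settings. Each line of the deposited tables gives a RefSeq transcript's read count, its length and its RPKM, per the file headers. The deposited RPKM values equal count over length and over a read total of 213854095 (MHC-II high) and 142330178 (MHC-II low). Genes held 138368535 and 56077479 reads.

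Stray lines (18 and 36) were left out, and genomic copies of a transcript were summed. The 29800 accessions in both tables with equal length were used, and symbols came from RefSeq and, for 174, from GENCODE vM21. Among all accessions 394 had no symbol and counted as genes of their own. Shared reads are counted on each isoform. CPM used TMM totals from edgeR 4.0.16 in R 4.3.3, over genes with a mean of at least 1 CPM, which were 152834157 and 50769794. Ratios carry exact 95% Clopper-Pearson intervals of the reads (scipy 1.17.1), which cover counting error only and treat reads as independent draws. The reads carry no molecular identifiers, so PCR copies could not be told apart, and the intervals can be too narrow. edgeR served for scaling alone, as 1 library per group allows no test. The procedure was run on simulated counts with counting error only, drawn with the same library totals. That run could test neither the scaling nor variation beyond counting.

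Named genes were all 6 markers, the p53, PCGF, SOXE/SOXD and Ly6 lists, at most 4 genes of any other list (2 with the most reads, 2 with the largest ratio), the 2 nearest genes on either side, and the 2 nearest patterns. Others are said to be named after their values were seen. The markers, lists and alternatives were chosen with earlier results of these data known. Alternatives were other scalings (DESeq2 1.42.0 among them), another transcript per gene, a call at 1.5-fold, no minimum, and missing accessions read as 0.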

Additional observations from a re-analysis of the deposited data

How the results depend on the processing

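Pdpn and Ly6a were called lower in the MHC-II high library under each of the 7 scalings tried, with log2 ratios from -2.35 to -1.35 and from -2.14 to -1.14. Neither gene had a second transcript count to try, and a call at 1.5-fold could not undo one at 2-fold. Bmi1 was called neither way under any scaling, with log2 ratios of 0.00 to 1.01. The Trp63 call was lost with unscaled totals (-0.81), with the RPKM totals (-0.094) and with TMM over all genes (-0.98). Plet1 changed sign with unscaled totals (0.048) and with the RPKM totals (0.76), and Sox9 with the RPKM totals (0.57). These scalings add 0.29 (unscaled), 1.003 (RPKM totals) and 0.12 (TMM over all genes) to every log2 ratio. Over all genes, 2530 were higher and 1907 lower, against 7232 and 471 with the RPKM totals, 3453 and 1282 unscaled, 3973 and 3562 at 1.5-fold, and 3822 lower with no minimum. Genes of the lists numbered 38 higher and 59 lower, against 92 and 37 with the RPKM totals. TMM over all genes and the gamma transcript were added after seeing the data. Which scaling is right was not tested. No paired analysis was possible because each group had 1 library.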
